A study of Mus musculus with 9 samples.

Results

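The clustered protocadherins are cell-surface adhesion proteins encoded by 3 neighbouring gene clusters, alpha, beta and gamma. Members were taken from the deposited table by gene symbol, as every gene whose Ensembl identifier maps to a Pcdha, Pcdhac, Pcdhb, Pcdhga, Pcdhgb or Pcdhgc symbol with a number, which gave 58 of 55704 genes. They comprise 14 alpha, 22 beta and 22 gamma genes, the last made up of 12 gamma-A, 7 gamma-B and 3 gamma C-type genes. The data are bulk RNA-seq of neural stem cells (NSCs) from the subventricular zone of adult C57BL/6 mice, in 3 groups of 3 libraries. Cells of the bFGF/EGF group, the proliferating control, were collected at day 0 after attaching to poly-L-ornithine and laminin. Cells of the bFGF/BMP4 group (EGF replaced by BMP4) and of the BMP4 group (both growth factors replaced by BMP4) were collected after 6 further days, with each factor at 20 ng/mL. All 3 groups thus share strain, tissue of origin, passaging in bFGF/EGF medium and the adherent substrate, and the labels name no transgene or deletion. Each isolation pooled 2 female and 2 male mice, so sex cannot be told apart. Because the control was not kept for 6 days, treatment and time in culture cannot be told apart in any comparison with it. The labels call the 3 libraries of a group biological replicates without naming their isolations, so p-values measure the spread between these libraries.

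Each clustered protocadherin gene has its own promoter. In the alpha and gamma clusters a large variable exon, which encodes the extracellular and transmembrane parts, is spliced to constant exons shared by the whole cluster. Beta genes consist of a variable exon alone and have no such constant part. In neurons, each cell switches on a different small set of the alternate (alpha, beta, gamma-A and gamma-B) promoters, with CTCF and cohesin bridging promoters and distant enhancers and with DNA methylation keeping unused promoters silent. The C-type genes Pcdhac1, Pcdhac2, Pcdhgc3, Pcdhgc4 and Pcdhgc5 lie at the downstream ends of the alpha and gamma clusters and are regulated differently from the alternate genes. The proteins pair across cells by matching isoforms, and they are known for self-avoidance of neurites, survival of neurons and the shape of neurons and astrocytes. Pcdhgc3 is also known for a role in the branching of astrocytes.

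All members lie on the plus strand of mouse chromosome 18. In GRCm39 with the GENCODE vM39 annotation, the alpha cluster spans 37063237 to 37320716, the beta cluster 37397991 to 37657532 and the gamma cluster 37794846 to 37975014. The exons of all 14 alpha genes share 2860 bases, those of all 22 gamma genes share 2116 bases, and those of the beta genes share 0. The deposited unit is FPKM, the fragments of a gene for each kilobase of its length and each 1000000 of the library. Gene lengths rebuilt from the values ran from 5206 to 7535 bases for alpha, 2588 to 8695 for beta and 4615 to 7627 for gamma genes. These lengths include the shared exons of the alpha and gamma genes. Fragments on the shared exons were nevertheless not counted for every member, because the least covered alpha gene, Pcdha4, had 0 fragments in all 9 libraries and the least covered gamma gene, Pcdhga10, had at most 5. A level in FPKM is therefore low for alpha and gamma genes relative to beta genes. The plain ratio of a gene's FPKM between groups does not depend on its length. The tests below, however, add 0.1 to each FPKM and need a mean of at least 0.1 FPKM. For low genes, the tested fold change, and whether the gene was tested, thus do depend on length.

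Of the 58 members, 49 were above 0 in every library. A mean of at least 0.1 FPKM over the 9 libraries, the limit for testing, was reached by 47, namely 5 alpha, 21 beta and 21 gamma genes. The 11 others were Pcdha1 to Pcdha8, Pcdha11, Pcdhb1 and Pcdhga10, and none of these had more than 13 fragments in any library. Pcdhga10 is not comparable with its neighbours, because 2634 of its bases lie under the opposite-strand gene Gm26672 and 0 of its annotated exon bases are free of other genes. An opposite-strand gene overlapped 18 members in all. Whether fragments were counted by strand is not given in the sources used here, so reads of such pairs cannot be told apart. Values of 9 of the overlapping genes were used here, and all 9 were low: BC037039, opposite Pcdhgc3, had 12 to 51 fragments, and the others had at most 41. These values do not show how far the members are affected, since reads in an overlap may have been counted for neither gene. Gm58529 and Gm58660, which also lie opposite members, were not analysed here.

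**Figure D1:**
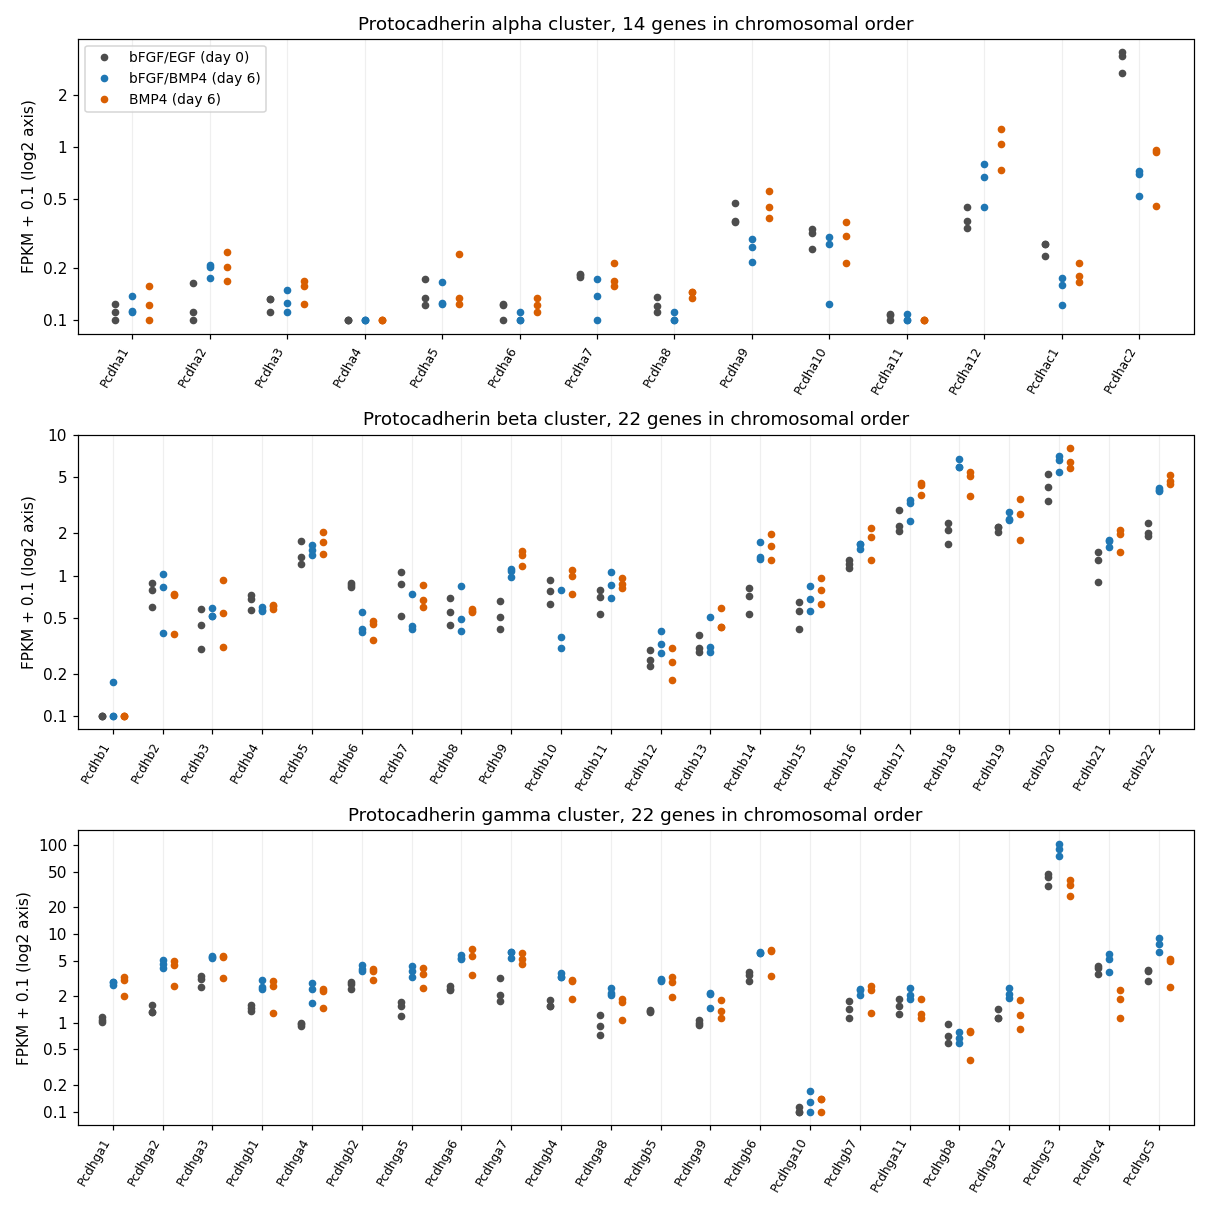
FPKM + 0.1 (log2 axis) of all 58 clustered protocadherins in each of the 9 libraries, in chromosomal order, with the alpha, beta and gamma clusters in separate panels with their own axes and each point 1 library. Pcdhgc3 lies between 26.8 and 104 FPKM and above every other member, whereas most alpha genes lie near 0.

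Depth was even, with 15902203 to 17437634 fragments on genes per library. Log2 values of all genes correlated at 0.95 to 0.964 within groups and at most at 0.915 between groups. Replicate 2 of BMP4 had the lowest level of its group for 24 of the 26 alpha and gamma members tested. No such count is given here for the beta genes or for all genes, so this cannot be called particular to these clusters. FPKM values of BMP4 replicate 2 summed to 326302 against 278175 and 278433 in the other BMP4 libraries. The genes its fragments lay on had a mean length of 5487 bases against 6224 and 6251. Replicate 2 of bFGF/EGF had a mean of 5645 bases against 5964 and 6174. The part of these library differences in the results was not tested, and values without BMP4 replicate 2 are given where they matter. Of 8 NSC markers, 2 were called higher and 4 lower with bFGF/BMP4, beside 16.5% and 14.1% of all genes. With BMP4, 3 were higher (Prom1, Hes5 and Gfap) and 1 lower (Nes), beside 21.3% and 15.4%. All 8 summed to 1673 to 1771 FPKM in bFGF/EGF, 701 to 808 in bFGF/BMP4 libraries and 3595 to 4695 in those of BMP4. In the BMP4 libraries Gfap, also a gene of astrocytes, made up 2181 to 3038 FPKM. Sox2 was measured at 121 to 202 FPKM in all libraries. Nes, an intermediate filament of NSCs, fell from 145 to 157 FPKM in bFGF/EGF to 2.96 to 3.94 in bFGF/BMP4 and 10.7 to 20.7 in BMP4.

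Summed over the cluster, the gamma genes held the most RNA. The summed gamma level was 78.2, 86.2 and 68.1 FPKM in the 3 bFGF/EGF libraries, 143, 161 and 182 in bFGF/BMP4, and 98.1, 65.8 and 108 in BMP4. The bFGF/BMP4 libraries were all above the others, at 2.09 times the bFGF/EGF mean, and the BMP4 and bFGF/EGF libraries overlapped. The beta sum was 23.8, 19.3 and 25.1 FPKM in bFGF/EGF, 31.6, 32.9 and 37.3 in bFGF/BMP4, and 36.1, 31.9 and 41.2 in BMP4. Both treated groups thus lay above the control, at 1.49 and 1.6 times its mean, and overlapped each other. The alpha sum went the other way, from 4.5, 4.67 and 3.76 FPKM in bFGF/EGF to 1.61, 1.53 and 1.87 in bFGF/BMP4 and 3.35, 1.73 and 2.87 in BMP4. Its means were 0.388 and 0.615 times that of the control, the second being 0.722 times without BMP4 replicate 2. These sums were not tested, since they mix genes that moved in different directions. In bulk RNA, fewer cells expressing a gene and less RNA per cell cannot be told apart.

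**Figure D2:**
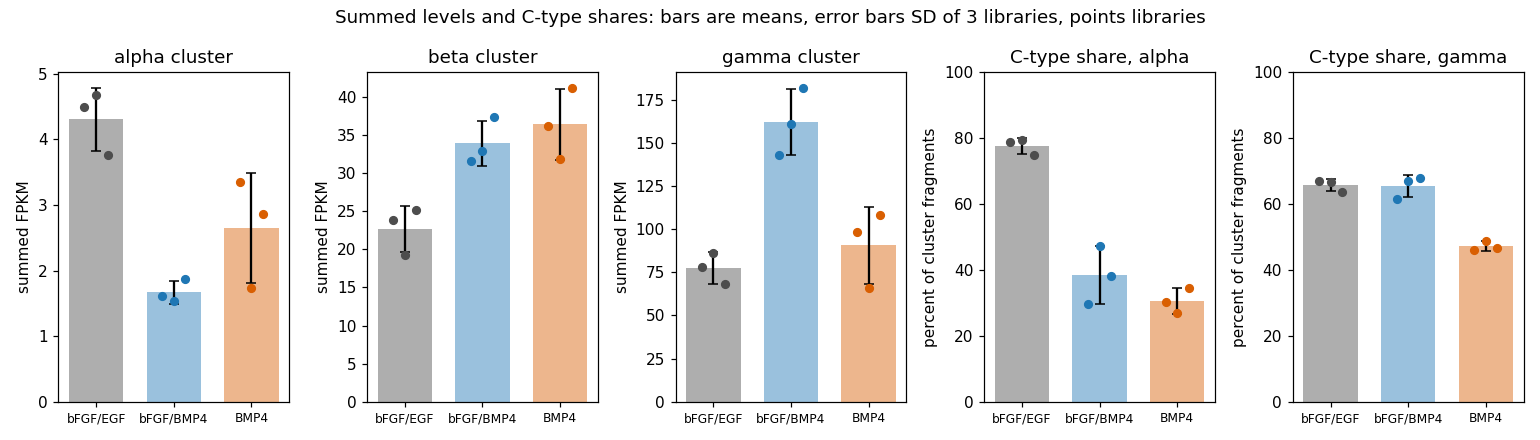
Summed FPKM of the alpha, beta and gamma clusters and, in percent of cluster fragments, the share of the C-type genes in the alpha and gamma clusters; bars are means, error bars the SD of 3 libraries and points the libraries. The gamma sum is highest in bFGF/BMP4, the alpha sum and the alpha C-type share are highest in bFGF/EGF, and the gamma C-type share is lowest in BMP4.

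The make-up of the clusters also differed. C-type genes took 77.6% ± 2.41 (SD, n = 3) of the alpha fragments in bFGF/EGF, with 38.4% ± 8.88 in bFGF/BMP4 libraries and 30.5% ± 3.85 in those of BMP4. In the gamma cluster their share was 65.8% ± 1.79, 65.4% ± 3.38 and 47.1% ± 1.51 in the same order. The alpha cluster thus lost its C-type majority in both treated groups, and the gamma cluster lost it with BMP4 alone. Pcdhgc3 by itself took 41.5% ± 3.78 of the fragments of all members in bFGF/EGF, with 46.7% ± 2.59 in bFGF/BMP4 libraries and 27.8% ± 1.04 in those of BMP4, where no library overlapped those of the other groups.

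The first question was which members differ between bFGF/BMP4-treated NSCs and the proliferating control. A linear model (limma) was fitted to log2(FPKM + 0.1) of 20207 genes, and a gene was called at a Benjamini-Hochberg adjusted p of at most 0.05 with a change of at least 2-fold. On this scale the change of genes near 0.1 FPKM is understated. Of the 47 members tested, 14 were called higher, beside 16.5% of all genes tested, and 1 was called lower, beside 14.1%. The gamma cluster contributed 11 of the 14 (of 21 tested), the beta cluster 3 (of 21) and the alpha cluster 0 (of 5). The median log2 fold change was 1.08 for gamma, 0.34 for beta and -0.66 for alpha genes, against 0.06 for all genes. By the adjusted p alone, 22 were higher and 2 lower, beside 25% and 23.6% of all genes. With limma-voom on fragment numbers the split was 12 higher and 5 lower, and with quantile normalization 10 and 3. Here and below, shares of all genes are given only for adjusted p-values of the limma fit described above. Counts by other methods or by unadjusted p have no such share beside them and cannot be set against all genes.

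BMP4 alone was compared with the same control libraries, so the comparisons are not independent of each other. Here 11 members were called higher, beside 21.3% of all genes, and 3 lower, beside 15.4%. Of the higher ones, 6 were gamma, 4 beta and 1 alpha, and the 3 lower ones were Pcdhac2, Pcdhb6 and Pcdhgc4. The share of members called higher was thus close to that of all genes. Cluster medians were 0.64 for gamma, 0.40 for beta and -0.06 for alpha genes, against 0.10 for all genes. By the adjusted p alone the numbers were 18 and 3, beside 29.6% and 25.3%. Quantile normalization gave 6 higher and 4 lower.

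The treated groups were then compared with each other at the same day. With limma, 0 members were called higher in BMP4 than in bFGF/BMP4, beside 8.41% of all genes, and 2 were called lower, Pcdhgc3 and Pcdhgc4, beside 5.14%. At an unadjusted p under 0.05, 3 members were higher and 5 lower, and limma-voom called 2 higher, Pcdha9 and Pcdhb10, and 2 lower. By the adjusted p alone 3 were lower, beside 8.89% of all genes, and 0 higher, beside 12.2%. Values lay below 0 for all 21 gamma genes tested, from -1.52 to -0.05 with a median of -0.25, and above 0 for 16 of 21 beta and all 5 alpha genes tested. Most single differences did not pass the test. Without BMP4 replicate 2, 11 of the 18 gamma-A and gamma-B genes tested lay above 0, with a median of 0.02 in place of -0.22. The C-type genes Pcdhgc3, Pcdhgc4 and Pcdhgc5 lay at -1.25, -1.22 and -0.57 without that library.

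**Figure D3:**
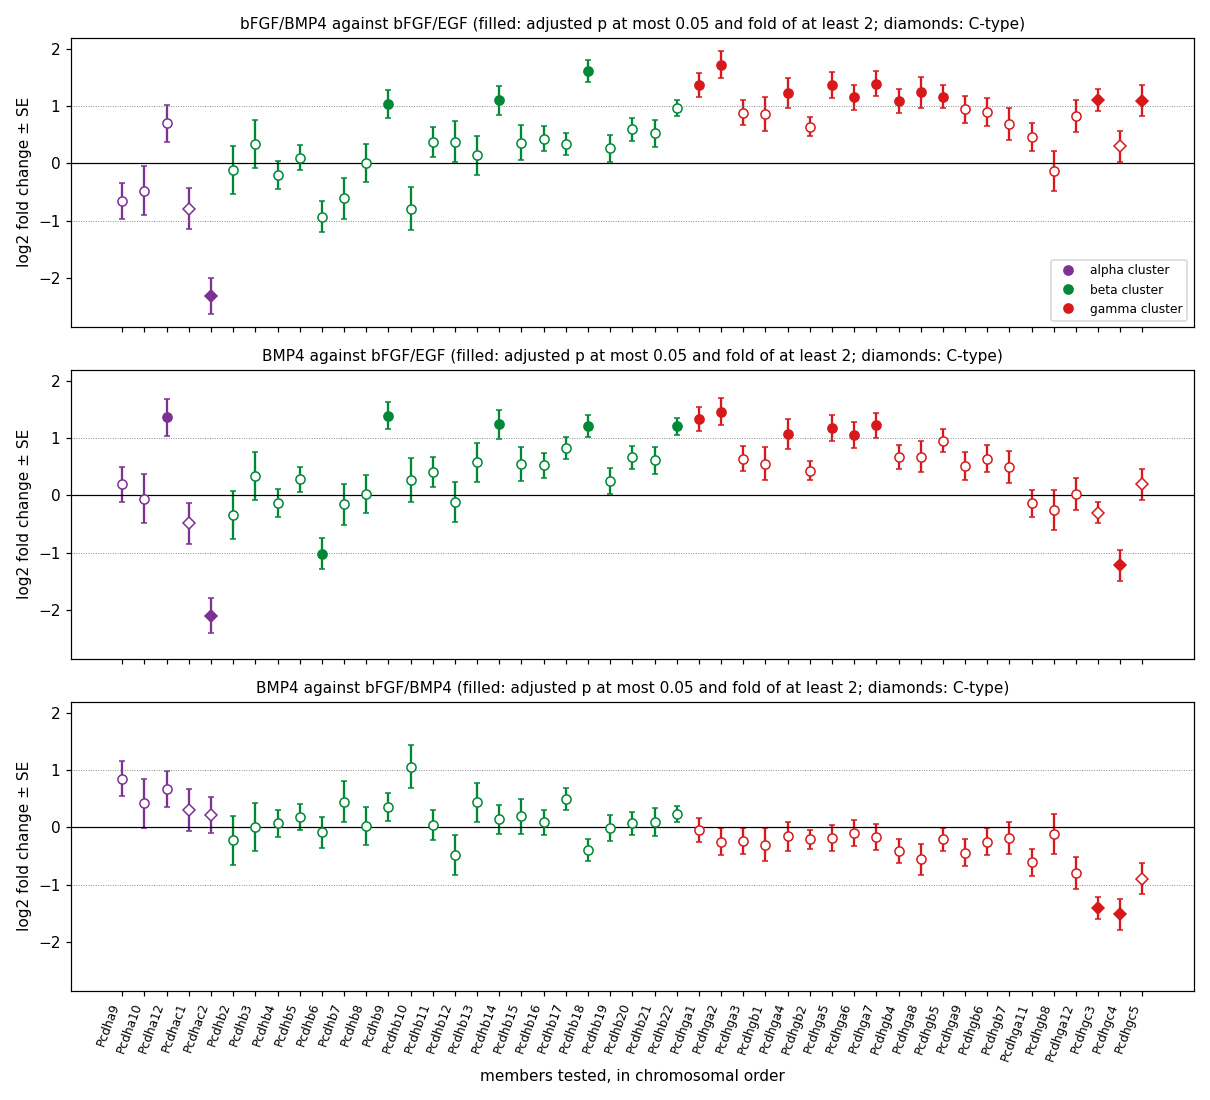
Log2 fold change (FPKM + 0.1 scale) ± SE of the 47 members tested, in chromosomal order, for the 3 comparisons; filled symbols passed an adjusted p of 0.05 with a fold of at least 2, and diamonds are C-type genes. Upstream gamma genes rise against bFGF/EGF in both treated groups, Pcdhac2 falls in both, and the gamma C-type genes lie lowest in the bottom panel.

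Among the C-type genes, Pcdhac2, the last gene of the alpha cluster and the isoform known from serotonergic neurons, showed the largest fall of any member. It was measured at 3.3, 3.45 and 2.61 FPKM in bFGF/EGF, 0.423, 0.631 and 0.6 in bFGF/BMP4, and 0.837, 0.357 and 0.865 in BMP4. Every treated library lay below every control library, and the treated groups overlapped. The log2 fold change was -2.31 ± 0.31 (SE) with bFGF/BMP4 (adjusted p = 0.00019, limma) and -2.10 ± 0.31 with BMP4 (adjusted p = 0.00028), and both calls held with each library left out. Between the treated groups it was 0.21 ± 0.31 (adjusted p = 0.71). The neighbouring Pcdhac1 was far lower, at 13 to 16 fragments per library in bFGF/EGF, 2 to 6 in bFGF/BMP4 and 6 to 10 in BMP4. Its groups did not overlap with the control, yet it did not pass the test, with log2 fold changes of -0.79 ± 0.36 (adjusted p = 0.097, limma) and -0.49 ± 0.36 (adjusted p = 0.28). With limma-voom, which weighs fragment numbers, the first was -1.75 (adjusted p = 0.0093).

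Pcdhgc3 was the highest member in every group. Its levels were 43.6, 47.4 and 34.6 FPKM in bFGF/EGF, 75, 91.4 and 104 in bFGF/BMP4, and 35.1, 26.8 and 40.2 in BMP4, from 2389 to 8409 fragments per library. Libraries of bFGF/BMP4 stood above all others, and those of BMP4 and bFGF/EGF overlapped. The log2 fold change was 1.10 ± 0.19 against the control (adjusted p = 0.00079, limma) and -1.41 ± 0.19 for BMP4 against bFGF/BMP4 (adjusted p = 0.00047). The rise lies at the 2-fold limit: it was 0.97 without bFGF/EGF replicate 3, 1.00 and just under the limit without bFGF/BMP4 replicate 3, and 0.99 with limma-voom, whereas the difference between treated groups ranged from -1.54 to -1.25 with each library left out. For BMP4 against the control it was -0.30 ± 0.19 (adjusted p = 0.20). On a scale chosen after the data were seen, all fragments of a gene were divided by the kilobases of its exons that no other annotated gene covers. Pcdhgc3 then had 129 ± 15.5, 256 ± 34.8 and 98.5 ± 21.5 fragments for each 1000000 (mean ± SD, n = 3) in bFGF/EGF, bFGF/BMP4 and BMP4. Its divisor was 1821 bases, and 3381 would apply if fragments were counted by strand, which would lower these values. The next member on that scale was Pcdhgb6 at 6.42 ± 0.486, Pcdhgc5 at 11.5 ± 1.85 and Pcdhga7 at 10.1 ± 1.6, respectively.

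Pcdhgc4, the gamma isoform known to be needed for the survival of interneurons, fell with BMP4 alone. It was measured at 4.21, 4.05 and 3.41 FPKM in bFGF/EGF, 3.64, 5.09 and 5.9 in bFGF/BMP4, and 1.77, 1.04 and 2.23 in BMP4. All BMP4 libraries were below all others, and the other groups overlapped. Its change was -1.22 ± 0.27 against the control (adjusted p = 0.0035, limma) and -1.52 ± 0.27 against bFGF/BMP4 (adjusted p = 0.0028) on the log2 scale. Without BMP4 replicate 2 the first became -0.93 and missed the 2-fold limit, and the second was called with each library left out. For bFGF/BMP4 against the control it was 0.30 ± 0.27 (adjusted p = 0.40).

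Pcdhgc5, the last gene of the gamma cluster, rose with bFGF/BMP4. Its levels were 2.85, 3.86 and 3.7 FPKM in bFGF/EGF, 6.1, 7.55 and 8.88 in bFGF/BMP4, and 5.07, 2.44 and 4.86 in BMP4. The bFGF/BMP4 libraries were again above all others, and BMP4 and bFGF/EGF overlapped. The log2 fold change was 1.09 ± 0.27 against the control (adjusted p = 0.0078, limma), dropping to 0.96 without bFGF/EGF replicate 1 or without bFGF/BMP4 replicate 3, and to 0.99 with limma-voom. BMP4 lay -0.90 ± 0.27 from bFGF/BMP4, a difference with an adjusted p of 0.041 but under the 2-fold limit. Against the control BMP4 lay at 0.19 ± 0.27 (adjusted p = 0.59).

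**Figure D4:**
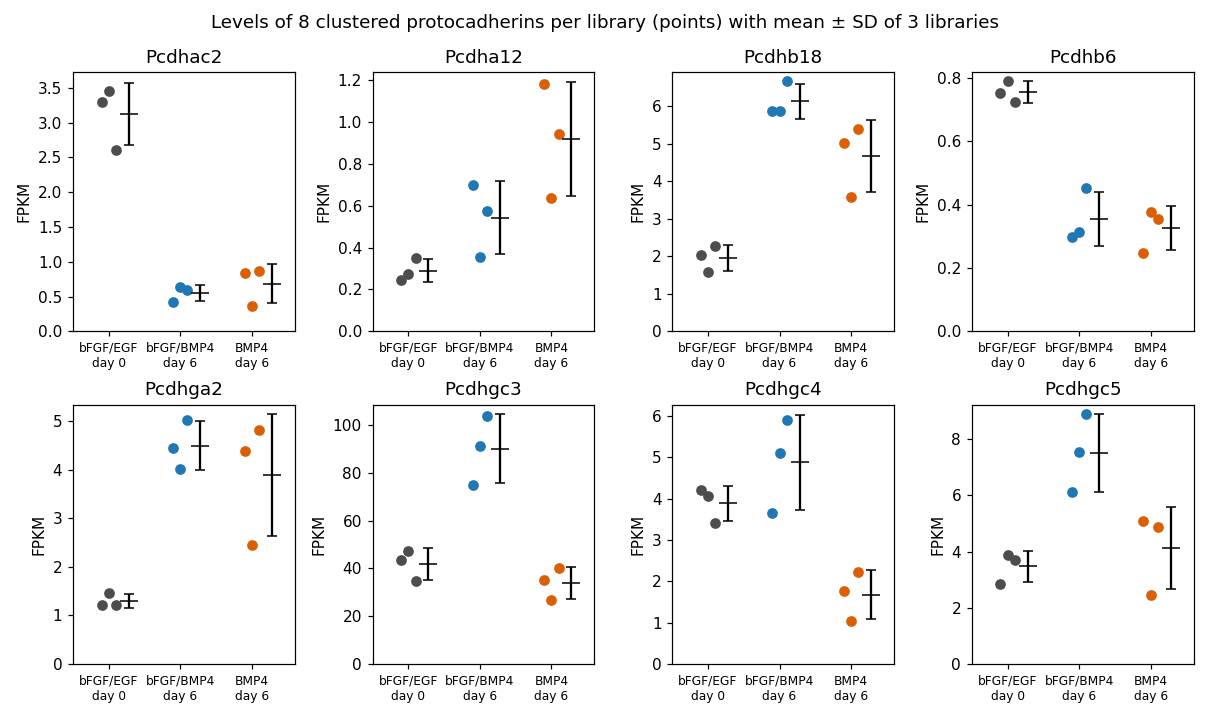
FPKM of 8 clustered protocadherins in each library (points) beside the mean ± SD of 3 libraries, each panel with its own axis from 0. Pcdhgc3 and Pcdhgc5 are highest in bFGF/BMP4, Pcdhgc4 is lowest in BMP4, Pcdhac2 and Pcdhb6 are highest in bFGF/EGF, and Pcdha12, Pcdhb18 and Pcdhga2 are lowest in bFGF/EGF.

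In the gamma cluster the alternate genes encode the gamma-A and gamma-B isoforms, which share the constant exons with each other and with the gamma C-type genes. Against the control, 9 of the 18 tested were called higher with bFGF/BMP4, beside 16.5% of all genes, and 6 with BMP4, beside 21.3%. At the adjusted p alone, 15 and 11 were higher, beside 25% and 29.6%. In these comparisons 0 were lower, by limma, by limma-voom and at an unadjusted p under 0.05. The 6 genes called with BMP4 were gamma-A genes. Of the 7 gamma-B genes, 4 were higher with BMP4 at the adjusted p but under the 2-fold limit, the nearest to it being Pcdhgb5 at 0.95 ± 0.20 (adjusted p = 0.0025, limma). A difference between gamma-A and gamma-B genes was not tested.

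Pcdhga2 showed the largest rise of any member. It was measured at 1.22, 1.47 and 1.21 FPKM in bFGF/EGF, 4.45, 4.02 and 5.02 in bFGF/BMP4, and 4.39, 2.46 and 4.81 in BMP4. Each treated library lay above each control library, and the treated groups overlapped. With bFGF/BMP4 the log2 change was 1.72 ± 0.24 (adjusted p = 0.00024, limma), and with BMP4 it was 1.46 ± 0.24 (adjusted p = 0.00054). Pcdhga1, the first gene of the cluster, had 0.965, 1.07 and 0.928 FPKM in bFGF/EGF, 2.58, 2.79 and 2.77 in bFGF/BMP4, and 3.19, 1.91 and 2.96 in BMP4. Its groups were arranged alike, with log2 fold changes of 1.37 ± 0.21 (adjusted p = 0.00038) and 1.33 ± 0.21 (adjusted p = 0.00038). Both genes were called against the control with each library left out.

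The 3 gamma-A genes with the highest mean level were Pcdhga7, Pcdhga3 and Pcdhga6. Pcdhga7 had 1.94, 3.12 and 1.67 FPKM in bFGF/EGF, 5.3, 6.17 and 6.11 in bFGF/BMP4, and 5.15, 4.51 and 5.95 in BMP4. The control libraries were below all treated ones, with log2 fold changes of 1.39 ± 0.22 (adjusted p = 0.0005, limma) and 1.22 ± 0.22 (adjusted p = 0.00094). For Pcdhga6 the levels were 2.25, 2.48 and 2.32 FPKM, then 5.23, 5.14 and 5.66, then 5.5, 3.38 and 6.61 in the same group order. It too had no overlap with the control, at 1.15 ± 0.22 (adjusted p = 0.0016) and 1.05 ± 0.22 (adjusted p = 0.0022), the second falling under the 2-fold limit without BMP4 replicate 1 or 3 (0.98 and 0.85) and on the TPM scale (0.97). Pcdhga3 had 3.04, 3.24 and 2.45 FPKM, then 5.51, 5.33 and 5.34, then 5.61, 3.13 and 5.39. BMP4 replicate 2 fell among the control libraries, and the changes of 0.88 ± 0.22 (adjusted p = 0.0075) and 0.64 ± 0.22 (adjusted p = 0.03) stayed under the 2-fold limit.

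The 3 gamma-B genes with the highest mean level were Pcdhgb6, Pcdhgb2 and Pcdhgb4. Pcdhgb6 had 3.32, 3.59 and 2.86 FPKM in bFGF/EGF, 6.19, 6.08 and 5.99 in bFGF/BMP4, and 6.51, 3.28 and 6.26 in BMP4. Pcdhgb2 had 2.61, 2.8 and 2.27, then 4.39, 3.98 and 3.77, then 3.94, 2.9 and 3.68. Pcdhgb4 had 1.43, 1.44 and 1.7, then 3.21, 3.16 and 3.58, then 2.89, 1.75 and 2.93. In all 3 genes bFGF/BMP4 was separate from the control, and BMP4 replicate 2 was the lowest BMP4 library. With bFGF/BMP4 the log2 fold change was 0.89 ± 0.24 for Pcdhgb6, 0.64 ± 0.16 for Pcdhgb2 and 1.08 ± 0.21 for Pcdhgb4 (adjusted p = 0.011, 0.008 and 0.0019, limma), so that Pcdhgb4 alone of these passed the 2-fold limit, and it was at 0.94 with quantile normalization. With BMP4 it was 0.64, 0.43 and 0.66 (adjusted p = 0.041, 0.045 and 0.022).

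Among the gamma-A and gamma-B genes, the change against the control was smaller toward the downstream end. The 9 upstream genes tested, Pcdhga1 to Pcdhga7, had median log2 fold changes of 1.23 with bFGF/BMP4 and 1.07 with BMP4, and the 9 downstream ones, Pcdhgb4 to Pcdhga12, of 0.89 and 0.51. Across these 18 genes the fold change correlated with the order along the chromosome at a Pearson r of -0.61 with bFGF/BMP4 and -0.73 with BMP4 (Spearman -0.56 and -0.67). The genes share the same libraries, the same constant exons and, for the comparisons, the same control, so these correlations are a description. Without BMP4 replicate 2 the r with BMP4 was again -0.73. The 3 genes nearest the C-type genes, Pcdhga11, Pcdhgb8 and Pcdhga12, had -0.14, -0.25 and 0.02 with BMP4, with SEs of 0.24 to 0.35, and 0.46, -0.13 and 0.82 with bFGF/BMP4. Pcdhga11 and Pcdhga12 lie partly opposite Gm26672, with 1393 and 824 of their bases under it. In the beta cluster the order ran the other way, with r of 0.56 and 0.60 over 21 genes (Spearman 0.66 and 0.64). Its 10 upstream genes had medians of -0.06 and 0.15, and its 11 downstream genes, which border the gamma cluster, of 0.43 and 0.61.

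Beta genes lack the constant cytoplasmic part, and no exon is shared by the whole cluster. Pcdhb21 and Pcdhb22 overlap each other on the same strand, and 90.3% and 90.9% of their exon bases lie in no other gene. The 3 with the highest mean level were Pcdhb20, Pcdhb18 and Pcdhb22, all at the downstream end. Pcdhb18 had 2.02, 1.59 and 2.26 FPKM in bFGF/EGF, 5.86, 5.86 and 6.66 in bFGF/BMP4, and 5.02, 3.59 and 5.4 in BMP4. The 3 groups did not overlap, and the log2 fold change was 1.61 ± 0.19 (adjusted p = 7.7e-05, limma) with bFGF/BMP4 and 1.21 ± 0.19 (adjusted p = 0.00039) with BMP4, the treated groups lying -0.40 ± 0.19 apart (adjusted p = 0.18). Pcdhb22 had 1.92, 1.8 and 2.28, then 3.95, 3.91 and 4.14, then 5.13, 4.36 and 4.63. Its groups did not overlap either, with log2 fold changes of 0.97 ± 0.14 (adjusted p = 0.00033), just under the 2-fold limit, and 1.20 ± 0.14 (adjusted p = 6e-05). Pcdhb20 had 4.21, 3.3 and 5.18, then 5.39, 6.57 and 7.07, then 5.71, 6.33 and 8.02. The control lay below both treated groups by 0.59 ± 0.20 (adjusted p = 0.031) and 0.66 ± 0.20 (adjusted p = 0.017), under the 2-fold limit.

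Lower in level but called against the control was Pcdhb9, with 0.404, 0.559 and 0.315 FPKM in bFGF/EGF, 0.876, 1.02 and 0.979 in bFGF/BMP4, and 1.07, 1.39 and 1.31 in BMP4. The groups did not overlap, and the log2 fold change was 1.03 ± 0.24 (adjusted p = 0.0058, limma) and 1.39 ± 0.24 (adjusted p = 0.00084), the first becoming 0.88 without bFGF/EGF replicate 3, 0.99 without bFGF/BMP4 replicate 2 and 0.78 with quantile normalization. Pcdhb6 was the beta gene called lower with limma. It had 0.752, 0.792 and 0.724 FPKM in bFGF/EGF, 0.298, 0.313 and 0.453 in bFGF/BMP4, and 0.246, 0.378 and 0.355 in BMP4, from 15 to 48 fragments per library. All treated libraries were below the control, by -1.02 ± 0.27 for BMP4 (adjusted p = 0.0095) and -0.93 ± 0.27 for bFGF/BMP4 (adjusted p = 0.017), so both values lie at the 2-fold limit. The first was -0.99 without bFGF/EGF replicate 2 and -0.87 without BMP4 replicate 1, and limma-voom called the second at -1.21. The other 16 beta genes tested had log2 fold changes from -0.79 to 1.10 with bFGF/BMP4 and from -0.34 to 1.24 with BMP4. The top of both ranges was Pcdhb14, which was called in both comparisons.

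Of the 12 alternate alpha genes, only Pcdha9, Pcdha10 and Pcdha12 could be tested, and none exceeded 1.18 FPKM in any library. Pcdha12, the alternate gene nearest to the C-type genes, had 0.243, 0.273 and 0.35 FPKM in bFGF/EGF, 0.7, 0.354 and 0.573 in bFGF/BMP4, and 1.18, 0.637 and 0.943 in BMP4. Both treated groups lay above the control, bFGF/BMP4 narrowly, and overlapped each other. With BMP4 it changed by 1.36 ± 0.32 on the log2 scale (adjusted p = 0.0046, limma) and with bFGF/BMP4 by 0.70 ± 0.32 (adjusted p = 0.099), and the first was 0.93 with quantile normalization. Its share of the alpha fragments went from 6.36% ± 2 (SD, n = 3) in bFGF/EGF to 31.3% ± 10.2 in bFGF/BMP4 and 34% ± 2.08 in BMP4, beside the fall of Pcdhac2 from 74% ± 2.32 to 35.3% ± 7.73 and 27.1% ± 4.99. Pcdha9 had 0.374, 0.272 and 0.275 FPKM in bFGF/EGF, 0.117, 0.195 and 0.165 in bFGF/BMP4, and 0.461, 0.289 and 0.352 in BMP4. The bFGF/BMP4 libraries were below all others, but none of its differences passed the test with limma, at -0.66 ± 0.31 (adjusted p = 0.11) against the control and 0.85 ± 0.31 (adjusted p = 0.085) for BMP4 against bFGF/BMP4. Limma-voom called both, at -1.06 and 1.20 (adjusted p = 0.034 each). Pcdha10 had 10 to 24 fragments in every library but 1, bFGF/BMP4 replicate 2 with 2, and its differences did not pass the test.

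Of 12 genes for factors known to act in the choice of protocadherin promoters, which include CTCF, the cohesin subunits and loaders and the repressor REST, 0 passed both limits in any of the 3 comparisons with limma. Of all genes, 5.14% to 21.3% passed both limits, depending on comparison and direction. At the adjusted p alone, 1 was higher and 2 lower of the 12 with bFGF/BMP4, beside 25% and 23.6% of all genes. With BMP4 against the control, 4 were lower, beside 25.3%. The median log2 fold changes were -0.15 and -0.29 (all genes 0.06 and 0.10), and 11 of the 12 values with BMP4 lay below 0. By unadjusted p under 0.05 the counts were 1 higher and 2 lower, and 1 higher and 4 lower, and for BMP4 against bFGF/BMP4 they were 0 higher and 3 lower. Limma-voom called 1 lower with BMP4 against the control and 0 otherwise. Ctcf was measured at 24.3 to 34 FPKM in bFGF/EGF, 18.2 to 21.9 in bFGF/BMP4 and 15.5 to 17.5 in BMP4. Its log2 fold change was -0.49 ± 0.14 (adjusted p = 0.014, limma) and -0.80 ± 0.14 (adjusted p = 0.00072), under the 2-fold limit in both. Smc1a, a cohesin subunit gene named after its values were seen, lay at the 2-fold limit with BMP4, at -0.99 ± 0.19 (adjusted p = 0.0016). Rest, which encodes a repressor of neuronal genes, was at 4.5 to 5.8, 7.96 to 9.7 and 6.18 to 7.61 FPKM, with 0.73 ± 0.14 (adjusted p = 0.002) for bFGF/BMP4 against the control. Wapl, the cohesin release factor, differed by 0.09 ± 0.20 and -0.11 ± 0.20 from the control (adjusted p = 0.75 and 0.67).

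A list of 16 genes covered silencing and DNA methylation at the clusters, and it included Tet1, Tet2 and Tet3, whose products remove methylation. Its counts and medians thus mix opposite activities. Of the 16, 1 was called higher and 4 lower with bFGF/BMP4, beside 16.5% and 14.1% of all genes. With BMP4, 6 were lower, beside 15.4%. Tet2 was at 1.76 to 2.68 FPKM in bFGF/EGF, 3.97 to 5.79 in bFGF/BMP4 and 2.39 to 3.88 in BMP4. Tet3 was at 11.5 to 12.9, 4.12 to 4.59 and 2.47 to 4.17 FPKM. The median log2 fold changes were -0.13 and -0.26 (all genes 0.06 and 0.10). For BMP4 against bFGF/BMP4, 1 was called lower, beside 5.14%. Uhrf1, which brings DNMT1 to newly replicated DNA, was at 43.1 to 76.3 FPKM in bFGF/EGF, 4.11 to 8.98 in bFGF/BMP4 and 1.54 to 1.95 in BMP4. The 3 groups were wide apart, with -3.11 ± 0.30 (adjusted p = 2.4e-05, limma) and -5.04 ± 0.30 (adjusted p = 7.7e-07). Dnmt1, the maintenance DNA methyltransferase, fell by 2.22 and 2.83 on the log2 scale (adjusted p = 2e-05 and 2.8e-06). Both genes are known to be high in dividing cells. Setdb1, the H3K9 methyltransferase that guards the protocadherin locus, was at 17 to 18.3 FPKM in bFGF/EGF, 8.36 to 10.1 in bFGF/BMP4 and 6.07 to 7.83 in BMP4. It passed the 2-fold limit with BMP4 at -1.31 ± 0.13 (adjusted p = 1.5e-05) and stayed under it with bFGF/BMP4 at -0.94 ± 0.13 (adjusted p = 0.00019). Smchd1, a repressor of the clusters, and Dnmt3b, which methylates their promoters in early development, did not pass the test, with -0.36 ± 0.24 and -0.17 ± 0.30 for bFGF/BMP4 and -0.34 ± 0.24 and 0.12 ± 0.30 for BMP4. Dnmt3b stayed between 0.32 and 0.737 FPKM.

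Genes for proteins that cut, phosphorylate or bind the protocadherins were tested for 23 of 24. With bFGF/BMP4, 3 were called higher and 1 lower, beside 16.5% and 14.1% of all genes, and with BMP4 2 and 3, beside 21.3% and 15.4%. Between the treated groups 1 was called higher, beside 8.41%. None of these counts exceeds the share of all genes. Prkca, the protein kinase C that phosphorylates the gamma tail, rose from 7.17 to 8.35 FPKM in bFGF/EGF to 63.7 to 64.6 in bFGF/BMP4 and 38 to 56.7 in BMP4. Its changes were 3.01 ± 0.14 (adjusted p = 2.5e-07, limma) and 2.53 ± 0.14 (adjusted p = 5.2e-07) on the log2 scale. Psen2, a catalytic subunit of the gamma-secretase that releases the protocadherin tail, rose by 1.42 ± 0.18 and 1.99 ± 0.18. Wasf1, a subunit of the WAVE complex that protocadherin tails can bind, fell by 1.58 and 1.62 on the log2 scale. Its relative Wasf3 went the other way, at 11.7 to 15.6 FPKM in bFGF/EGF, 29.8 to 38.3 in bFGF/BMP4 and 16.8 to 20.6 in BMP4. Wasf2 was at 13.9 to 15.6, 11 to 13.8 and 13.5 to 16.6 FPKM. Ptk2b, the kinase PYK2 that protocadherin tails hold in check, was higher in BMP4 than in bFGF/BMP4 by 1.38 ± 0.31 (adjusted p = 0.01), at 0.656 to 0.816 against 0.141 to 0.337 FPKM.

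Non-clustered protocadherins, which are not part of the 3 clusters, were tested for 11 of 12 genes. With bFGF/BMP4, 5 were called higher and 1 lower, beside 16.5% and 14.1% of all genes. The counts were 2 and 2 with BMP4, beside 21.3% and 15.4%, and between the treated groups 5 were called lower, beside 5.14%. The median log2 fold changes were 0.83, -0.05 and -0.76, the first and last on the same side of 0 as those of the gamma cluster. Without BMP4 replicate 2 the last was -0.78, while that of the gamma cluster was 0.01. Pcdh17 had 1.52 to 2.51 FPKM in bFGF/EGF, 16.7 to 21.6 in bFGF/BMP4 and 2.31 to 4.25 in BMP4. The bFGF/BMP4 libraries stood apart, by 3.21 ± 0.24 over the control (adjusted p = 4.8e-06, limma), with BMP4 -2.64 ± 0.24 from it (adjusted p = 5.2e-05). Pcdh20 had the same shape at 0.075 to 0.138, 0.607 to 0.866 and 0.0897 to 0.101 FPKM. Pcdh8 was higher in both treated groups, by 1.54 ± 0.20 and 2.40 ± 0.20. Pcdh15, known from the tip links of hair cells, fell from 0.588 to 1.25 FPKM in the control to at most 0.0572 in the treated groups.

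Of 12 genes outside the families that lie beside or between the clusters, 1 was called higher and 1 lower against the control in each treated group. The shares of all genes were 16.5% and 14.1% with bFGF/BMP4, and 21.3% and 15.4% with BMP4. Fchsd1 changed by 1.03 ± 0.20 in both, and Wdr55 by -1.86 ± 0.13 and -1.71 ± 0.13. Between the treated groups 0 were called higher or lower with limma or limma-voom, with 2 higher and 1 lower at an unadjusted p under 0.05. With limma, 8.41% and 5.14% of all genes were called there. Taf7, a TFIID subunit gene that lies between the beta and gamma clusters, was at 2.92 to 4.06, 3.13 to 4.26 and 3.42 to 5.05 FPKM and overlapped in all groups. Diaph1, beyond the gamma cluster, was at 8.84 to 9.47, 10.4 to 12.6 and 8.74 to 9.87 FPKM. Neither passed the test in any comparison, with log2 fold changes from -0.27 to 0.27 across both genes.

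Markers of other cell types moved between the groups as well. For comparison with the counts below, 16.5% of all genes were called higher and 14.1% lower with bFGF/BMP4. With BMP4 the shares were 21.3% and 15.4%. Of 10 neuron and neuroblast markers, the summed level was 401 to 448 FPKM in bFGF/EGF, 67.3 to 73.2 in bFGF/BMP4 and 188 to 270 in BMP4, and it consisted mostly of Gap43, Map2 and Tubb3. Without those 3 it was 14.7 to 20.1, 9.78 to 10.3 and 12.7 to 19.3, and Stmn2 was at most 0.198 FPKM in every library. Of the 9 tested, 3 were called lower with bFGF/BMP4, and 3 lower and 2 higher with BMP4. The higher ones were Tubb3, at 20.3 ± 4.02 FPKM (SD, n = 3) in bFGF/EGF and 145 ± 39.9 in BMP4, and Dcx, which ranged from 0.11 to 0.233 and from 0.342 to 1.99 FPKM. Dcx was at 1.99 FPKM in BMP4 replicate 1 against 0.342 and 0.384 in the other BMP4 libraries. Its call (adjusted p = 0.05, limma) held in 2 of the 9 fits with a library left out. For the 8 astrocyte markers the sum rose from 175 to 246 FPKM in bFGF/EGF to 504 to 547 in bFGF/BMP4 and 1024 to 1184 in BMP4, 5 of 8 being called higher and 1 lower in each treated group. The lower one, Aldh1l1, was at 112 to 162 FPKM in the control, 23.6 to 24.8 in bFGF/BMP4 libraries and 51.3 to 64.7 in those of BMP4. Aqp4 took up 192 to 239 FPKM of the astrocyte sum in bFGF/BMP4 and 700 to 830 in BMP4. For BMP4 against bFGF/BMP4, 4 astrocyte markers were called higher and 2 lower (Slc1a2 and Gjb6), beside 8.41% and 5.14% of all genes. The 5 ependymal markers found in the table summed to 8.23 to 12.6, 11.1 to 11.7 and 57.8 to 69.9 FPKM, with Tmem212 at 0 throughout. Foxj1 made up most of these sums, at 6.13 to 10.8, 9.44 to 10.4 and 51.4 to 61.2 FPKM. Of the 4 tested, 0 were called higher and 1 lower with bFGF/BMP4, and 4 higher and 0 lower with BMP4. Of the 8 oligodendrocyte lineage markers, Olig1 and Olig2 dominated the sums of 1564 to 2264, 1320 to 1802 and 243 to 444 FPKM, Mog was at most 0.115, and Sox10 was at 0 in all treated libraries. Of the microglial markers Itgam was at 0 and Csf1r at most at 0.032 FPKM in every library, and of the vascular markers Cldn5 was at 0. The 6 microglial markers summed to 0.411 to 0.876, 0.412 to 0.54 and 1.49 to 1.74 FPKM, and of the 2 tested Tmem119 was called higher and P2ry12 lower in each treated group. The 6 vascular and mural markers summed to 0.15 to 0.276, 1.66 to 2.53 and 3.8 to 5.46 FPKM, and of the 3 tested 2 were called higher with bFGF/BMP4 and 3 with BMP4, among them Kdr at 0.0912 to 0.196, 0.834 to 1.42 and 2.68 to 4.08 FPKM. The part of these shifts in the protocadherin results was not tested.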

How the data were processed

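RNA of 9 libraries (3 groups of 3) was sequenced. The authors cleaned the reads with fastp 0.19.7, aligned them to mm39 with HISAT2 2.0.5 and, per the submitters' processing notes, used featureCounts 1.5.0-p3. The annotation release and the counting settings are not given in the sources used here. They deposited FPKM values for 55704 genes, and no other values were used.

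Whole fragment numbers were rebuilt from FPKM for all 30860 genes above 0. The implied gene length was whole (within 0.02 base) for 99.87% of 11590 genes with over 20 fragments in every library. The authors' library totals were 0.918 to 1.07 times the fragments on genes, of which there were 15902203 to 17437634. Up to 3 fragments in a library was read as not detected.

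Tests used limma 3.58.1 (R 4.3.3) with a mean-variance trend on log2(FPKM + 0.1) of the 20207 genes averaging 0.1 FPKM or more. All 9 libraries entered the fit, p-values were adjusted by Benjamini-Hochberg over all these genes, and calls needed 0.05 or less with a 2-fold change. Sums and shares were not tested. The code was tested on simulated data. Tables and plots used Python 3.11.15, pandas 2.3.3, numpy 2.4.6 and matplotlib 3.10.9. Positions are from GENCODE vM39.

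Named members were the 5 C-type genes, the 3 highest in each of the alternate alpha, beta, gamma-A and gamma-B groups, and up to 4 largest rises and falls past the threshold per comparison. From each other list, the 2 largest changes past the threshold and Ctcf, Smchd1, Dnmt3b, Rest, Setdb1, Wapl, Taf7 and Diaph1 were named. The other members and genes named were chosen after their values were seen. Members and lists were chosen with earlier results of these data known. Alternatives were each library left out, pseudocounts of 1 and 0.01, other thresholds, limma-voom on rebuilt fragments, quantile normalization, median-ratio scaling, the TPM scale, a higher (1 FPKM) or absent expression filter, a fit to the compared groups alone and a replicate block. The scale by exon in no other gene was added after the data were seen.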

Additional observations from a re-analysis of the deposited data

How the results depend on the processing

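Member counts are given in the order higher and lower with bFGF/BMP4 against bFGF/EGF, with BMP4 against bFGF/EGF, and for BMP4 against bFGF/BMP4, where they were 14 and 1, 11 and 3, and 0 and 2. They stayed within 1.5 times these with an adjusted p of at most 0.01, the TPM scale, only the groups compared, median-ratio scaling, no filter and a filter at 1 FPKM. A pseudocount of 1 gave 4 higher with bFGF/BMP4 and 1 higher and 1 lower with BMP4, since it shrinks the changes of low genes. A pseudocount of 0.01 gave 2 lower with bFGF/BMP4. Quantile normalization, which moved the median log2 fold change of all genes for BMP4 against bFGF/EGF from 0.10 to -0.03, gave 3 lower with bFGF/BMP4 and 6 higher with BMP4. Limma-voom gave 5 lower with bFGF/BMP4 and 2 higher in BMP4 than in bFGF/BMP4. With no fold limit the counts were 22 higher and 2 lower with bFGF/BMP4 and 18 higher with BMP4. With each library left out the counts ran from 11 to 14 and 1 to 3, from 9 to 12 and 2 to 3, and from 0 to 1 and 2 to 4; the 3 lower and the 1 higher came without bFGF/BMP4 replicate 3, and the 4 lower without BMP4 replicate 3. The replicate numbers did not pair the libraries, with correlations of same-numbered deviations from -0.084 to 0.125, and a replicate block gave 14 and 1, 11 and 3, and 0 and 2. The median of the cytoplasmic partners with bFGF/BMP4 was -0.04 with limma-voom, and those of the neighbouring genes were -0.17 with bFGF/BMP4 and -0.14 with BMP4. For the non-clustered protocadherins with BMP4 the median was 0.46 with the filter at 1 FPKM and -0.66 with quantile normalization, and for BMP4 against bFGF/BMP4 it was -1.22 with a pseudocount of 0.01 and -1.38 with limma-voom. The log2 ratio of the alpha sums for bFGF/BMP4 was -1.54 in fragments scaled by library. By summed FPKM the gamma C-type share was 63.4% in bFGF/EGF and 44.2% in BMP4. Except for the pseudocount of 1 and the smaller samples, the cause was not tested. No value of a named member past the threshold changed sign under any alternative. At this depth, alpha genes under 0.1 FPKM cannot be compared between groups.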
